A study of Mus musculus with 4 samples.

Results

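Among the mouse transcripts measured on these arrays were long intergenic non-coding RNA candidates, which the array names only by a genomic interval and a strand. They were taken as every non-control feature whose systematic name was a chromosome with a start and an end, and replicate spots of a feature were averaged on the log2 scale. There were 4450 such interval features of 56605 non-control features on the array, and 30479 features named by a RefSeq messenger RNA accession (NM_ features) served as the contrast. The interval features covered 3230 distinct intervals, or 2150 separate loci once overlapping intervals were merged, on 20 chromosomes. The intervals were 62 to 538251 bp long, with a median of 10601 bp. Of the features, 2227 carried a forward-strand name, 2222 a reverse-strand name and 1 no strand. Features of one interval, and features of overlapping intervals, share a locus and were not treated as replicates. Coordinates are those of the array's own names, on build mm9 per the file headers. Whether an interval lies clear of protein-coding genes was not checked here, since no annotation of that build was used. Nor was it checked whether an interval holds a known non-coding RNA, ribosomal RNA included.

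The study asked how fluoxetine, an antidepressant that blocks serotonin reuptake, alters gene expression in S-180 cells, a sarcoma line of the mouse. Both groups were cultured in RPMI medium with 10% FBS in 12-well plates. The control group (2 arrays) was untreated, and the fluoxetine group (2 arrays) received 20 µM of the drug for 12 h. The labels call the samples biological replicates, name no vehicle for the controls and do not say whether the cultures were separate, so a p-value reflects only how these samples spread. The model is 1 cell line in culture.

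Long intergenic non-coding RNAs are transcripts that lie between protein-coding genes and are not translated into known proteins. Many are made by RNA polymerase II, and are spliced and polyadenylated like messenger RNAs, but they are usually less abundant, more restricted to particular cell types and often kept in the nucleus. Some act as structural scaffolds or guide chromatin regulators, others are by-products of enhancer or promoter activity, and many are cleared quickly by the nuclear exosome.

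All values below are called scaled intensity, which is the deposited processed signal after each array was divided by its own 75th percentile and returned to a common scale. The 75th percentiles were 449 and 415 on the control arrays and 356 and 419 on the fluoxetine arrays. All 4 arrays came from 1 slide and 1 scan, the 2 control arrays lay next to each other on it, so slide position cannot be told apart from group. Over the interval features that were tested, Pearson's r was 0.956 between the control arrays, 0.981 between the fluoxetine arrays and 0.907 to 0.947 between arrays of different groups. Marker genes were read as a check of the label: 5 of 9 mesenchymal genes were above background on all 4 arrays (Vim, Fn1, Sparc, S100a4 and Col1a1), while Col3a1, Thy1 and Pdgfrb were above it on none. Of other cell types, 4 of 8 leukocyte genes (Cd3e, Itgam, Cd68 and Csf1r), 4 of 6 epithelial and 1 of 3 endothelial genes were above background on all arrays. The pan-leukocyte gene Ptprc, the macrophage gene Adgre1 and Itgax were above it on none. With fluoxetine, of the 8 leukocyte genes Cd68 (log2 change 1.39) and Cd3e (0.52) rose and Itgam (-1.96) fell. The summed scaled intensity of the 8 was 10500 and 11400 in control cells against 24900 and 21600. Most of that sum was Cd68, at 7962 and 8947 in control cells and 23891 and 20517 with fluoxetine. The 6 epithelial genes summed to 86300 and 91500 against 75700 and 73700, with a fall of Krt14 (-2.15), and the 3 endothelial genes, of which none passed, to 90.9 and 112 against 104 and 126. Of the mesenchymal genes, Sparc and Col1a2 fell and none rose, and the sums overlapped between groups. The part of these shifts in the changes of interval features was not tested.

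Fewer interval features than messenger RNA features gave a signal in these cells. On control 1, control 2, fluoxetine 1 and fluoxetine 2, the share of interval features well above background was 41.6%, 44.0%, 40.5% and 42.4%, against 61.3%, 62.3%, 61.6% and 62.7% of NM_ features. The interval share was below the NM_ share on each of the 4 arrays, and the 4 arrays differed from each other by less than these 2 classes did. On all 4 arrays, 1537 interval features (34.5%) were above background, against 17748 NM_ features (58.2%). Another 2140 interval features (48.1%) were above background on no array, and the remaining 773 on some. To be tested, a feature had to be above background in both control or both fluoxetine samples, as 1839 interval features (41.3%) and 18725 NM_ features (61.4%) were. The tested interval features were also dimmer, with a median scaled intensity of 97.3 (interquartile range 46.3 to 319) against 796 (160 to 3420) for NM_ features. The lowest scaled intensity well above background was 15.5 to 20.3 across the arrays, so a large part of the tested interval features lay within a few-fold of it.

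**Figure D1:**
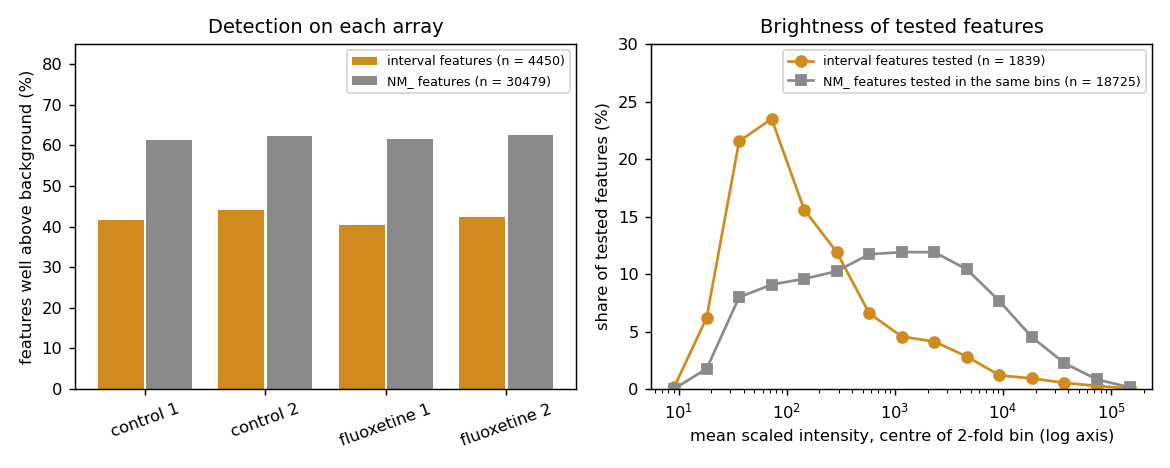
Left, the percentage of interval features (orange) and NM_ features (grey) well above background on each array; the interval bars stand at 40.5% to 44.0% and the NM_ bars at 61.3% to 62.7%. Right, the percentage of tested features in each 2-fold bin of mean scaled intensity (log axis), where the interval features peak at lower intensity than the NM_ features.

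Detection differed with the length of the interval and little with strand. Of the features with the shortest intervals (62 to 1736 bp) 27.7% were above background on all arrays, against 35.2% at 1738 to 10601 bp, 37.3% at 10611 to 25760 bp and 37.9% at 25777 to 538251 bp. On the forward strand 33.9% of features were above background on all arrays and on the reverse strand 35.2%. Of the 832 intervals with features on both strands, 154 had signal on both strands on all arrays, 161 on the forward strand alone, 199 on the reverse strand alone and 318 on neither. Signal on a single strand (161 and 199 intervals) was thus more frequent in this set than signal on both. These counts were not set against those that independent detection of each strand would give.

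The 5 brightest interval features lay on chromosomes 17, 14 and 6, where brightness reflects the probe as well as the amount of RNA. The brightest was the forward feature A_30_P01020514 at chr17:39983902-39985688, which read 114640 and 122690 in control cells and 124710 and 113310 with fluoxetine. Its groups overlapped, and its log2 change was 0.00 ± 0.10 (adjusted p = 0.982). At chr17:17481706-17482457 the reverse feature read 79111 and 85259 in control cells and 99494 and 81168 with fluoxetine (change 0.13 ± 0.14, adjusted p = 0.504), again with overlap. The forward feature at chr17:39982023-39983277 read 83109 and 94740 against 79062 and 73893, and the lower fluoxetine values did not pass the test (change -0.22 ± 0.11, adjusted p = 0.213). The forward feature at chr6:116123643-116124550 read 72094 and 76672 against 79550 and 73007 (change 0.04 ± 0.10, adjusted p = 0.795). Of these 5 brightest features, the forward one at chr14:78924115-78938125 fell, from 86805 and 94234 to 66926 and 66858 (change -0.44 ± 0.09, adjusted p = 0.0412). The reverse feature of that interval, at 138 and 134 in control cells, fell too (change -1.43, adjusted p = 0.0142).

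With fluoxetine, interval features fell more often than they rose, and NM_ features did the reverse. A feature is said to have risen or fallen when its adjusted p was under 0.05 in limma, a linear model fitted across all 28270 tested features, with Benjamini-Hochberg adjustment over all of them. Of all tested features, 25.6% passed, 12.6% as higher and 13.0% as lower. Of the 1839 tested interval features 426 passed (23.2%), 131 as higher (7.12%) and 295 as lower (16.0%). Their overall share was thus near the background of 25.6%, and the split by direction was not: 69.2% of the interval features called were lower, against 34.1% of the NM_ features called (2906 higher and 1503 lower). The median log2 change over the tested interval features was -0.08 (interquartile range -0.50 to 0.29), beside 0.00 over all tested features and 0.07 over NM_ features. A change of at least 2-fold was found, among calls, in 174 interval features (9.46%; 37 higher and 137 lower) against 6.64% of all features. Of these interval features, 26 of the higher and 78 of the lower were above background on all 4 arrays. The rest include features with no signal above background in one group, whose change has only a bound. The standard errors were larger for the interval features, with a median of 0.147 against 0.105 for NM_ features. The count depended on 3 of the 4 arrays: without fluoxetine 1 or without fluoxetine 2 no interval feature was called, although 555 and 581 had an unadjusted p under 0.05, without control 1 there were 14 calls (640), while without control 2 there were 440 calls, of which 53.4% were lower. An exact permutation test of a single feature, 2 arrays against 2, cannot go below p = 0.333.

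**Figure D2:**
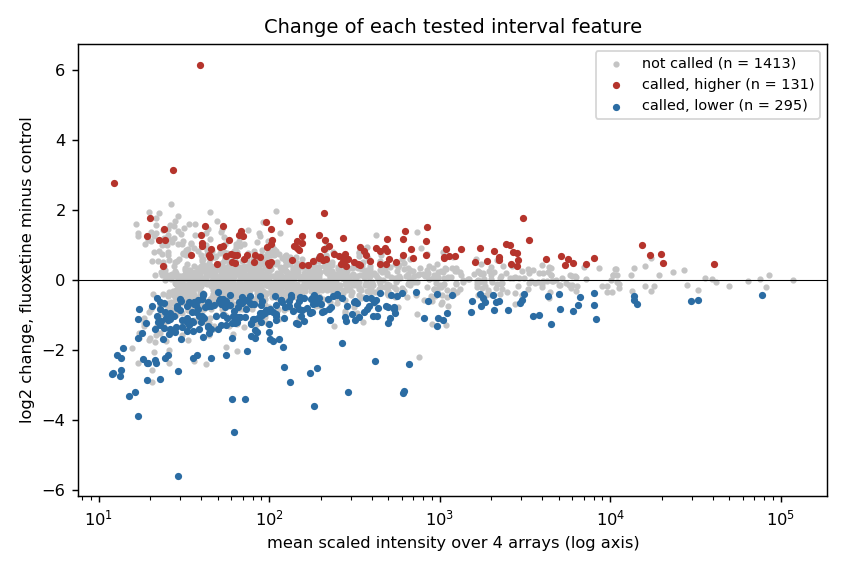
Each point is one of the 1839 tested interval features, with its mean scaled intensity over the 4 arrays (log axis) against its log2 change, fluoxetine minus control. The 131 features called higher are red, the 295 called lower are blue, and called falls reach further from 0 than called rises except for a few dim features whose control signal was not well above background.

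Fewer interval features than messenger RNA features of equal brightness rose, and more fell. When NM_ features were given the brightness distribution of the interval features, in 2-fold bins of mean intensity, 24.2% of them were called, 13.8% as higher and 10.4% as lower, where the interval features gave 23.2%, 7.12% and 16.0%. A called change of at least 2-fold was found in 7.09% of the weighted NM_ features and 9.46% of the interval features. The shares include features with signal in one group alone. Among interval features, 84 were dim on both fluoxetine arrays and 25 on both control arrays, against 166 and 203 NM_ features. Shares by brightness are not given for features above background on all 4 arrays. Between scaled intensities of 51 and 102, 5.09% of 432 interval features rose and 14.4% fell, while 11.2% of NM_ features rose and 10.2% fell. Between 408 and 817, 11.6% of 121 interval features rose and 19% fell, while 20.3% of NM_ features rose and 8.84% fell. In the 10 bins with at least 20 interval features, the share that fell was above that of NM_ features in 10 and the share that rose was below it in 9. These are shares of features read on one set of 4 arrays, and the difference between the classes was not given a test.

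**Figure D3:**
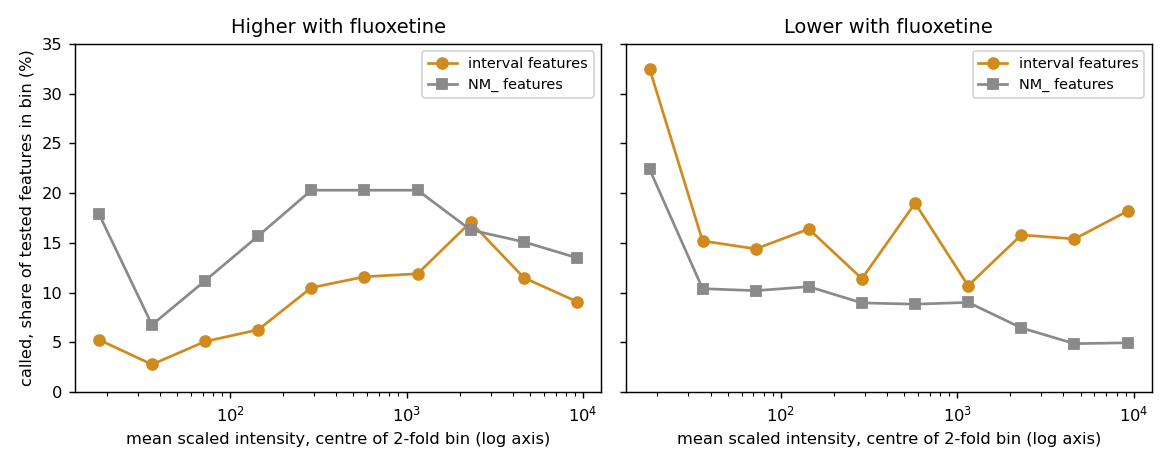
The percentage of tested features called higher (left) or lower (right) with fluoxetine, in 2-fold bins of mean scaled intensity (log axis), for interval features (orange) and NM_ features (grey); the 10 bins with at least 20 interval features are drawn. The orange line lies below the grey one in 9 of 10 bins on the left and above it in all 10 on the right.

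The 426 called features belonged to 404 intervals. The control and fluoxetine values did not overlap in any of the 426, nor in 72.5% of all tested features, called or not, so the lack of overlap in the called features named below adds nothing to their test. Of these features 340 were above background on all 4 arrays, 118 of them higher and 222 lower. The rises ran from 0.41 to 1.90 on the log2 scale with a median of 0.71, and the falls ran from 0.36 to 3.59 in size with a median of 0.80. Features on the forward strand passed in 191 of 911 cases (21.0%; 63 higher and 128 lower) and on the reverse strand in 235 of 928 (25.3%; 68 and 167). By chromosome, the share called ran from 16.7% on chromosome 4 to 37.3% on chromosome X, where 22 of 59 passed and 19 of them were lower.

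Of the 10 largest falls, 3 came from one stretch of chromosome 5. The forward feature A_30_P01019442 at chr5:14943275-14944205 read 1891 and 1816 in control cells and 200 and 196 with fluoxetine, a fall of 3.23 ± 0.08 on the log2 scale (adjusted p = 0.0137). The forward feature A_30_P01031842 at chr5:15146475-15170100 read 1769 and 1938 against 204 and 206 (change -3.17 ± 0.09, adjusted p = 0.0137). Between them, the forward feature A_30_P01023066 at chr5:15033568-15033987 read 454 and 421 against 77.9 and 61.3 (change -2.66 ± 0.15, adjusted p = 0.0142). In all 3, both fluoxetine values lay several-fold below both control values. The stretch that these features span, 227 kb, held 6 interval features named on the forward strand, and the other 3 were too dim to be tested. A longer forward interval, chr5:14923900-15062725, overlaps 2 of the 3 and has 2 forward features. The tested one, A_30_P01019649, read 39.2 and 246 in control cells and 178 and 139 with fluoxetine, with overlapping groups (change 0.68, adjusted p = 0.615). The other, A_30_P01022887, read 22.4 and 42.5 against 9.33 and 13.9, and was above background on 1 array only and not tested.

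A further 4 of the 10 largest falls came from chromosome 1, 1 on the reverse strand and 3 on the forward strand. The reverse feature A_30_P01022829 at chr1:78591605-78606083 had the largest fall among features above background on all arrays, from 686 and 594 to 51.8 and 54.0 (change -3.59 ± 0.11, adjusted p = 0.0137). The forward feature A_30_P01018083 at chr1:183951156-183986156 read 981 and 780 in control cells and 95.6 and 94.8 with fluoxetine (change -3.20 ± 0.14, adjusted p = 0.0137). At chr1:158979050-159007700 the forward feature read 401 and 511 against 78.0 and 80.9 (change -2.51 ± 0.15), and at chr1:74084292-74138492 it read 291 and 288 against 42.7 and 62.4 (change -2.49 ± 0.21). Neither of these 2 intervals had another feature that fell: a reverse feature overlapping each was tested and did not pass.

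The other 3 of the 10 largest falls were reverse-strand features on chromosomes 12, 16 and 11. At chr12:72103832-72116875 the values were 332 and 393 in control cells and 48.2 and 48.1 with fluoxetine (change -2.91 ± 0.12). At chr11:60728207-60745369 they were 887 and 966 against 182 and 192 (change -2.31 ± 0.09). At chr16:39984031-40081556 the spread was wider, with 1983 and 1170 against 197 and 421, and the fall of 2.40 ± 0.48 passed at an adjusted p of 0.0399.

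The rises were smaller than the falls and clustered in places. Of the 10 largest, the most intense was the forward feature A_30_P01018086 at chr2:181663381-181664097, which read 1714 and 1616 in control cells and 5237 and 6176 with fluoxetine (change 1.77 ± 0.12, adjusted p = 0.0142). This short interval lies inside chr2:181650800-181669350, whose own forward feature went the other way (change -0.51, adjusted p = 0.0307) and whose reverse feature did not pass (change -0.47, adjusted p = 0.113). The largest rise, of the reverse feature at chr4:128207615-128242898, went from 73.5 and 160 to 425 and 387 (change 1.90 ± 0.41, adjusted p = 0.0452). The control arrays differed more from each other here than in most of the other rises. At chr2:36112819-36114110 the forward feature read 57.6 and 66.6 against 220 and 130 (change 1.45 ± 0.29, adjusted p = 0.0397).

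Of the 10 largest rises, 6 came as 3 pairs of overlapping intervals. At chr14:26842169-26845456 the forward feature rose from 517 and 479 to 1567 and 1303 (change 1.52 ± 0.13), and in the overlapping chr14:26835914-26845344 the forward feature rose from 147 and 109 to 304 and 311 (change 1.28 ± 0.17). At chr9:78107225-78118850 the forward feature rose from 44.1 and 65.5 to 188 and 154 (change 1.67 ± 0.24), and in the overlapping chr9:78104935-78116974 from 44.0 and 41.3 to 96.9 and 112 (change 1.29 ± 0.11). These chromosome 14 and chromosome 9 pairs read the same strand, and within each pair both features rose. Another forward feature of chr9:78107225-78118850 was above background on no array. The third pair, on chromosome 19, read opposite strands. The forward feature A_30_P01020677 of chr19:5771425-5848475 rose from 66.7 and 79.4 to 235 and 229 (change 1.67 ± 0.12, adjusted p = 0.0142), and the reverse feature of chr19:5834117-5835940, inside it, rose from 369 and 406 to 1036 and 1002 (change 1.40 ± 0.09, adjusted p = 0.0142). A different reverse feature inside the same long interval, at chr19:5798135-5800557, fell (change -0.93, adjusted p = 0.0169). The remaining rise, of the reverse feature at chr15:85412264-85549139, went from 37.1 and 48.2 to 112 and 111 (change 1.40 ± 0.16), and a forward feature of that interval rose as well (change 0.64).

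**Figure D4:**
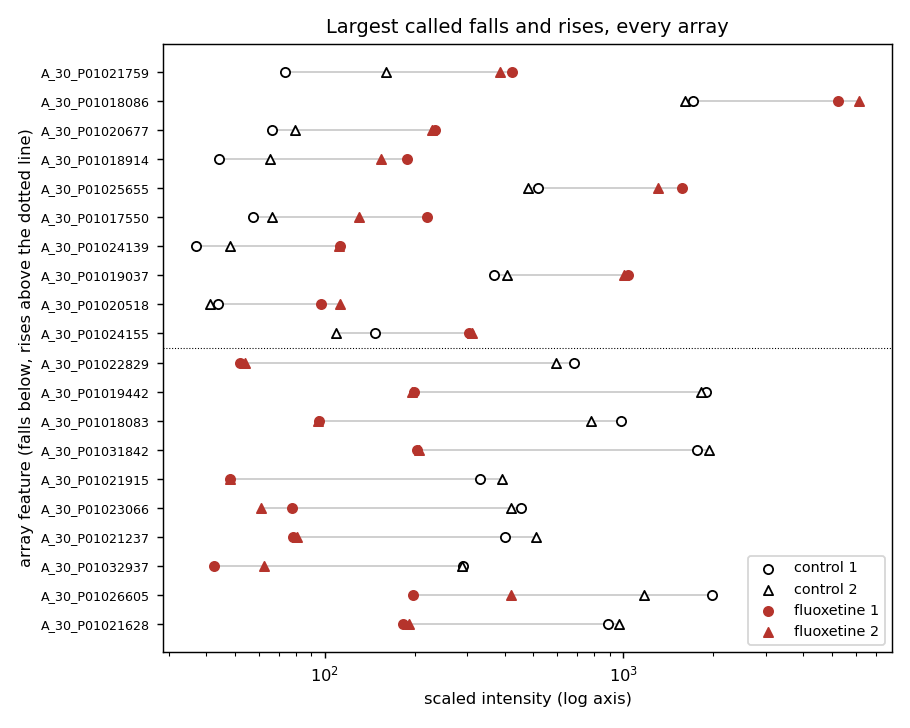
Scaled intensity (log axis) on every array of the interval features with the 10 largest falls (below the dotted line) and the 10 largest rises (above it) among called features above background on all arrays, by the array's feature name. Open symbols are control and red symbols fluoxetine arrays; the features were chosen among those whose groups do not overlap, and the distance between open and red symbols is wider for the falls (2.31 to 3.59 in size on the log2 scale) than for the rises (1.28 to 1.90).

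Some interval features had signal in one group while neither array of the other group was well above background, so their change has only a bound. Of the called features, 10 were not above background in control cells and 57 were not with fluoxetine. These entered the test only through the group in which they were bright, so their adjusted p values are not given as support for the bounds. For the bound, each dim array counted at its detection limit (its lowest signal well above background) or at the feature's own signal if that was higher, and the brighter group's mean was divided by the mean of these. The forward feature A_30_P01032721 at chr1:175654606-175672031 read 321 and 244 in control cells and 13.0 and 14.5 with fluoxetine, and was at least 15.8-fold lower. The reverse feature at chr1:173250734-173259306 read 177 and 219 against 24.4 and 14.1, and was at least 10.1-fold lower. Both control values were well clear of the fluoxetine values in these 2 cases. The reverse features at chr10:8606683-8665783 (77.0 and 83.0 against 19.5 and 16.6) and chr3:51804655-51805883 (71.9 and 83.6 against 22.0 and 12.2) were at least 4.36-fold and 4.20-fold lower. For the reverse feature at chr13:104802772-104802960 the bound depended on 1 array. It read 68.3 and 598 in control cells and 4.29 and 4.12 with fluoxetine, and was at least 11.4-fold lower when both control arrays were used. Taking control 1 as the only control array lowered this bound to 3.86-fold, and taking control 2 alone raised it to 33.8-fold.

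Of the bounded rises the largest was also the most variable. The forward feature A_30_P01021542 at chr5:108544188-108545013 read 4.92 and 4.37 in control cells and 171 and 634 with fluoxetine. It was at least 17.3-fold higher, or 8.99-fold without fluoxetine 2 and 33.3-fold without fluoxetine 1. The enclosing interval chr5:108538417-108550517 had a forward and a reverse feature, and neither was above background on any array. The reverse feature at chr5:125713450-125735500 read 9.54 and 8.80 against 133 and 48.3, at least 4.22-fold higher, or 2.54-fold without fluoxetine 1 and 7.01-fold without fluoxetine 2. The other 3 were at least 1.94-fold to 2.44-fold higher, at chr11:119250824-119286324 and chr5:149801336-149806799 on the reverse strand and at chr11:95359115-95369547 on the forward strand.

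Features of the same interval were compared next, since an interval read on both strands, or by more than 1 feature of a strand, gives a check within the locus. There were 372 pairs of tested features from one interval, 247 on opposite strands and 125 on the same strand, and some pairs share a feature. The difference between the changes of both features passed in 14 of 372 pairs (3.76%), from 11 intervals, and 80 had an unadjusted p under 0.05. In 7 of the 14, 1 feature was below detection on both arrays of one group, so the size of the difference has no value there, and in 5 both features were above background on all 4 arrays. Of the 14, 13 were opposite-strand pairs (5.26% of them) and 1 was a same-strand pair (0.800%). Changes had the same sign in 138 opposite-strand pairs (55.9%) and in 84 same-strand pairs (67.2%). The median size of the difference was 0.52 for opposite strands and 0.32 for the same strand. Across pairs, which share the 4 arrays and are not independent, Pearson's r of the changes was 0.14 for opposite strands and 0.35 for the same strand, and that of the mean levels was 0.06 and 0.54. Both features were called in 13 opposite-strand pairs, in the same direction in 9, and in 9 same-strand pairs, in the same direction in 8. When only features above background on all 4 arrays were tested, none of the 298 remaining pairs passed, and 60 had an unadjusted p under 0.05.

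The pairs with the largest measured differences, named by the rule, came from 2 intervals of chromosome 1, and in each pair 1 feature had only a bound with fluoxetine. At chr1:175654606-175672031 the forward feature was at least 15.8-fold lower, as given above, while 3 reverse features changed by -0.16, -0.51 and -0.52 and did not pass. Those reverse features read 384 and 382 in control cells and 347 and 339 with fluoxetine, 433 and 393 against 260 and 324, and 319 and 284 against 195 and 226. All 3 stayed above background on all arrays. At chr1:173250734-173259306 the reverse feature was at least 10.1-fold lower and the forward feature read 42.8 and 40.4 against 54.4 and 51.6 (change 0.35, adjusted p = 0.0601). Since the fluoxetine level of the feature that fell lay below detection in both intervals, no size or error of the difference between strands is given.

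In 3 intervals, chosen after their values were seen, features of both strands passed in opposite directions and their difference passed as well. Another interval, chr8:125031410-125075960, had a forward feature that rose and a reverse feature that fell, but their difference did not pass (adjusted p = 0.0572). At chr14:115423660-115463160 the forward feature rose from 791 and 820 to 1406 and 1553 (change 0.88 ± 0.10) and the reverse feature fell from 419 and 430 to 193 and 181 (change -1.18 ± 0.09), a difference of 2.06 ± 0.18 (adjusted p = 0.0375). At chr5:74487385-74497428 the order was turned: the forward feature fell from 8019 and 8420 to 4377 and 4552 (change -0.88 ± 0.09) and the reverse feature rose from 358 and 342 to 705 and 605 (change 0.90 ± 0.11), a difference of -1.78 ± 0.20 (adjusted p = 0.0409). At chr17:88466300-88495175 a forward feature rose from 236 and 213 to 326 and 320 (change 0.53 ± 0.10). The reverse feature, at 42.3 and 46.0 in control cells and not well above background with fluoxetine, was at least 2.49-fold lower. It entered the test only through the control arrays, so the tests of its fall and of the difference add no support there. At chr14:115423660-115463160 and chr5:74487385-74497428 both features were above background on all arrays. When only such features were tested, as given above, no pair passed, these included.

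The 1 same-strand pair whose difference passed was that of the long chromosome 19 interval. Its second forward feature read 1671 and 1845 in control cells and 1638 and 1700 with fluoxetine (change -0.07, adjusted p = 0.586), beside the rise of A_30_P01020677 given above, and the changes differed by 1.74 ± 0.17 (adjusted p = 0.0409). The interval that both features are named for is 77051 bp long.

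The intervals with most tested features showed how far features of a locus can differ. At chr2:167388900-167402475 the reverse features A_30_P01023697 (176 and 180 against 81.8 and 86.6) and A_30_P01024043 (179 and 134 against 63.9 and 65.1) fell, with changes of -1.08 ± 0.08 and -1.26 ± 0.17, while another reverse feature did not pass (change 0.13, adjusted p = 0.673) and the forward feature did not either (change 0.25, adjusted p = 0.155). The difference between that forward feature and A_30_P01023697 passed (1.33 ± 0.17, adjusted p = 0.0471). At chr2:60038543-60046318 2 reverse features rose, from 397 and 423 to 606 and 627 (change 0.59 ± 0.09) and from 32.5 and 41.9 to 66.0 and 76.4 (change 0.94 ± 0.17), and a reverse and a forward feature did not pass (changes 0.12 and -0.20). At chr17:46972160-46997919 a forward feature fell from 98.7 and 84.1 to 39.8 and 48.2 (change -1.06 ± 0.15) and the reverse feature from 467 and 513 to 262 and 261 (change -0.91 ± 0.09). The other 2 forward features there did not pass, with changes of 0.05 and -0.49.

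The direction of change was compared between neighbouring intervals, with no test of the shares. Each interval was read from its brightest tested feature, whatever its strand. The shares therefore mix neighbours read on the same strand and on opposite strands. Among adjacent tested intervals more than 100 kb apart, 50.5% of 958 had changes of the same sign, within 100 kb 57.0% of 256 did, and among overlapping intervals 50.2% of 281 did. Tested intervals with gaps of up to 100 kb formed 978 groups, of which 119 held at least 3 intervals, and in 3 of those groups at least 3 intervals were called in one direction, which was lower in each. On chromosome X, the reverse features A_30_P01033617 at chrX:92139043-92140820 (224 and 250 in control cells, 60.5 and 63.9 with fluoxetine), A_30_P01032775 at chrX:92149320-92151107 (187 and 198 against 51.5 and 63.6) and A_30_P01027477 at chrX:92151384-92157256 (49.3 and 57.6 against 21.6 and 25.5) fell, with log2 changes of -1.93 ± 0.10, -1.75 ± 0.14 and -1.18 ± 0.14. They lie within 18214 bp of each other on the same strand. A_30_P01027477 was not well above background on fluoxetine 1, where it read 21.6.

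On chromosome 2, within chr2:48805604-48974396, 3 of 4 intervals fell. The forward features at chr2:48818825-48822612 and chr2:48826955-48827592 read 138 and 133 against 52.1 and 67.5 (change -1.19 ± 0.16) and 154 and 156 against 85.3 and 71.8 (change -0.99 ± 0.12). The reverse feature at chr2:48807211-48843911 read 44.9 and 43.5 in control cells and was not well above background with fluoxetine (at least 2.50-fold lower), and the forward feature of the whole stretch did not pass (change -0.18, adjusted p = 0.277). On chromosome 17, the stretch that holds the brightest features had 3 reverse features that fell, by 0.46 to 0.71, and 2 forward features that did not pass. Of those 2, the one at chr17:39982023-39983277 had a change of -0.22 ± 0.11, and the difference between strands was not tested there.

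Named genes were set beside the intervals. Of 54 known long non-coding RNAs on the list, 43 had a feature on the array and 28 were tested, and 1 rose, 10 fell and 17 did not pass, with a median change of -0.36 beside 0.00 over all tested features, of which 12.6% rose and 13.0% fell. Without fluoxetine 1, fluoxetine 2 or control 1 none of the 28 was called, and without control 2 there were 5. The 1 that rose was Neat1, the RNA that nucleates nuclear paraspeckles, from 369 and 400 to 996 and 991 (change 1.37 ± 0.09, adjusted p = 0.0142). Neat1 lies on chromosome 19, as does the reverse interval feature that rose by 1.40 ± 0.09, and whether both features read one transcript was not tested. The largest falls on the list were those of Snhg7, a host gene of small nucleolar RNAs, from 4395 and 3921 to 1665 and 1690 (change -1.31 ± 0.10), and of Lncpint, a p53-induced transcript, from 824 and 961 to 355 and 411 (change -1.22 ± 0.14). Snhg12 and Snhg5, also small nucleolar RNA hosts, fell by 0.70 ± 0.10 and 0.65 ± 0.09. Fendrr, at 33.5 and 33.0 in control cells and 21.7 and 18.6 with fluoxetine, is among the 10 that fell. It was not well above background on either fluoxetine array, so no size of its fall is given.

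The second list held genes of nuclear RNA turnover and 3′ end formation, the machinery that limits many intergenic transcripts. Of its 29 tested genes 3 rose, 2 fell and 24 did not pass, with a median change of 0.04, beside 25.6% of all tested features called (12.6% higher and 13.0% lower). Without fluoxetine 1, fluoxetine 2 or control 1 none passed and without control 2 there were 2. Srrt, which links the nuclear cap-binding complex to RNA decay, rose from 447 and 519 to 711 and 736 (change 0.59 ± 0.11, adjusted p = 0.0363). Ints9, a subunit of the Integrator complex that cleaves non-coding transcripts, rose by 0.48 ± 0.10, and Cpsf1, a subunit of the cleavage and polyadenylation factor, by 0.41 ± 0.08. Pcf11, a termination factor, fell by 0.53 ± 0.11. Zc3h18, a cap-binding adaptor for the nuclear exosome, fell from 9965 and 9994 to 6148 and 6350 (change -0.68 ± 0.08, adjusted p = 0.0184), while another of its features had a change of opposite sign. No listed subunit of the nuclear exosome itself passed the test.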

How the data were processed

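Total RNA of 2 untreated and 2 fluoxetine-treated S-180 samples was labelled with Cy3 from 10 ng each and read on 1-colour Agilent arrays, per the labels' protocols. The deposited intensity values, on a linear scale and background-corrected per the file headers, came from the authors' run of Feature Extraction 12.1.0.3 on design build mm9; later steps of the authors are not given in the sources used here. From these, log2 of the processed signal minus each array's 75th percentile was computed, non-uniform spots were left out (4 interval features), and spots of a feature were averaged. No feature was saturated. Each of the 28270 features above background on both arrays of a group was fitted in limma 3.58.1 (R 4.3.3; lmFit, eBayes, group as the only term), checked on simulated data. Errors after ± are limma's standard errors of the log2 change with n = 2 arrays per group; adjusted p values are limma's with Benjamini-Hochberg adjustment, and pairs of one interval were fitted on the difference of both features and adjusted over the 372 pairs. The number of arrays limits precision.

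Accessions were given symbols through the RefSeq table of GRCm38.p6 (34675 of 56605 features matched), and a symbol was read from its brightest tested feature. Named were the 10 largest rises and 10 largest falls above background on all arrays without overlap, the 5 largest bounds each way, the 5 brightest, the 4 pairs with the largest called difference, the 4 intervals with most tested features and up to 5 genes of each list; other named items were chosen after their values were seen. The 185 interval features on chromosome 18 are counted and not named. The members, lists and this rule were chosen with earlier results of these data known. Alternatives were other background correction, scaling, filters and eBayes settings, the replicate number as a block, and leaving out each array. Normexp used the median signal, as the mean signal was not among the columns used here. Equal replicate numbers were not taken as pairs: the correlation of same-numbered deviations was -0.107.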

Additional observations from a re-analysis of the deposited data

How the results depend on the processing

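Counts are given as all features, then interval features, of which 7241 and 426 were called with a median change of -0.08 for interval features and 69.2% of calls lower. Under normexp the median was -0.02 and 61.3% of calls were lower, and under quantile normalization -0.01 and 59.7%. Under scaling to the median of detected features the median was -0.12, and the share of calls lower is not given. The share of NM_ calls that were lower is not given under any of these settings. The contrast between interval and NM_ features is thus stated for the fit described above alone. With no filter on dim features 0 and 0 were called (11595 and 804 at an unadjusted p under 0.05 in limma), 0 pairs differed (206 at an unadjusted p under 0.05), 0 list members passed and the median was -0.16. Among features above background on all arrays 64.4% of calls were lower, the median was -0.07 and 0 pairs differed (60 at an unadjusted p under 0.05). With an intensity trend in eBayes 17 known long non-coding RNAs and 9 turnover genes were called. With the replicate block 1281 and 115 were called, 78.3% lower, with 0 pairs (59 at an unadjusted p under 0.05), 3 known long non-coding RNAs and 0 turnover genes. With the replicate numbers crossed between groups, an alternative added after seeing the data, 3475 and 249 were called.

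Leaving out 1 array at a time, with the lone array assumed to vary like the other group, gave 0 to 4620 and 0 to 440 calls, medians of -0.12 to -0.07, 53.4% to 92.9% lower where any were called, 0 to 90 pairs, 0 to 5 known long non-coding RNAs and 0 to 2 turnover genes. Of all features 8480 without fluoxetine 1 and 9311 without fluoxetine 2 had an unadjusted p under 0.05. Of the 37 named features called, 0 changed sign in any setting in which they were fitted; the crossed pairing was run for counts alone. Sign changed for 6 named features that had not passed: A_30_P01020514 (-0.01 under normexp, -0.04 under median scaling and -0.07 to 0.07 without 1 array), A_30_P01024700 (-0.01 under quantile normalization and -0.12 to 0.21 without 1 array), A_30_P01026611 (-0.01 under median scaling and -0.03 to 0.10 without 1 array), and, without 1 array, A_30_P01019794 (-0.15 to 0.41), A_30_P01022075 (-0.02 to 0.28) and A_30_P01021448 (-0.16 to 0.40). By the looser mark of signal positive and significant, 55.0% of interval features were detected on all arrays in place of 34.5%. The cause of these shifts was not tested.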

Other observations

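Other classes of features that are named by transcript records in place of RefSeq messenger RNAs also had more falls than rises. Of 3903 tested features named by an Ensembl transcript 31.8% were called, 79.1% of them lower, and of 1377 named by an AK clone 37.0% were called, 85.1% of them lower. Of 916 RefSeq non-coding RNA (NR_) features 26.6% were called, 63.1% of them lower. The median changes were -0.27, -0.34 and -0.06, beside -0.08 for the interval features.

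The 5 interval features printed 10 times on each array give the technical spread within an array: the standard deviation of the log2 signal over the spots ran from 0.06 to 0.30.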
